A study of Homo sapiens with 9 samples.

Results

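The genes described here encode nucleoporins, the proteins that build the nuclear pore, and the receptors and Ran regulators that carry cargo through it. They were chosen by platform gene symbol, with earlier results of these data known. The symbols were NUP or IPO followed by digits, KPNA, KPNB or TNPO followed by a digit, and XPO followed by a digit or T. Also named were NXF1, NXT1, RAN, RANBP1, RANBP2 and RANGAP1. The rule took 48 of 16098 named probe sets, which stood for 45 genes, 21 nucleoporins and 24 transport receptors or Ran regulators. Of 51 RefSeq protein-coding genes with such a symbol, the other 6 (KPNA2, NUP62, NXF1, RAN, XPO1 and XPOT) had no probe set under that symbol in the annotation used and are not analysed here. All 45 genes, through 47 of the 48 probe sets, were bright enough to be tested, that is, at or above the array median on at least 3 of 8 arrays.

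RNA came from A549, an established human lung adenocarcinoma line, after 5 days in serum-containing DMEM in 1 of 3 conditions, each with 3 arrays. Cells were kept on low-attachment plates with FP001 at 0.015% (w/v), on low-attachment plates in normal medium, or on ordinary attachment plates in normal medium. FP001 is given only by this code name, and per the labels' protocols normal medium received water in its place. The array of attachment replicate 1 was left out by the rule that chose the genes. Its highest rank correlation with any other array was −0.00191 over all probe sets and −0.115 over the 48 probe sets, so 2 attachment arrays remained. The other 8 arrays had medians of 23.3 to 24.1 and rank correlations between 0.961 and 0.985. Values are MAS5 intensities on a linear scale, and a level is not compared between probe sets. Nothing states that replicates were separate cultures, so p-values reflect the spread among the arrays, which may be technical, and bulk RNA cannot tell fewer expressing cells from less RNA per cell.

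The nuclear pore is a ring-shaped channel through the nuclear envelope, made of many copies of each nucleoporin. Outer and inner rings form its scaffold, a central channel of flexible repeats sets what may pass, filaments reach into the cytoplasm, and a basket hangs into the nucleus. Importins bind cargo in the cytoplasm and release it in the nucleus when they meet RanGTP, while exportins bind cargo together with RanGTP and release it in the cytoplasm. In dividing cells pores are taken apart in mitosis and rebuilt, and new ones are added in interphase.

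Most of the scaffold nucleoporins read lower on low-attachment plates than on attachment plates, whether or not FP001 was present, and most transport receptors lay close to their attachment level. On low-attachment plates with FP001, 5 genes fell against attachment (NUP133, NUP43, NUP205, NUP153 and TNPO2) and 1 rose (IPO13), by limma over 10916 genes with Benjamini-Hochberg adjustment and a threshold of 0.05. These are 11.1% and 2.22% of the 45 genes, where 11.4% of all genes fell and 8.08% rose. On low-attachment plates in normal medium 2 genes fell (NUP133 and NUP43) and 1 rose (IPO13), which is 4.44% and 2.22% of the genes, where 5.76% of all genes fell and 4.31% rose. For the 45 genes as 1 set, the shares of called genes were thus near or below those of the whole array. Of the 21 nucleoporins, 4 fell with FP001 (19.0%) and 2 in normal medium (9.52%), above the shares of all genes, and 0 rose. Of the 24 receptors and Ran regulators, 1 fell with FP001 (4.17%) and 0 in normal medium, and 1 rose in either comparison (4.17%). Whether these class shares differ from those of all genes was not tested. Both comparisons use the same 2 attachment arrays.

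**Figure D1:**
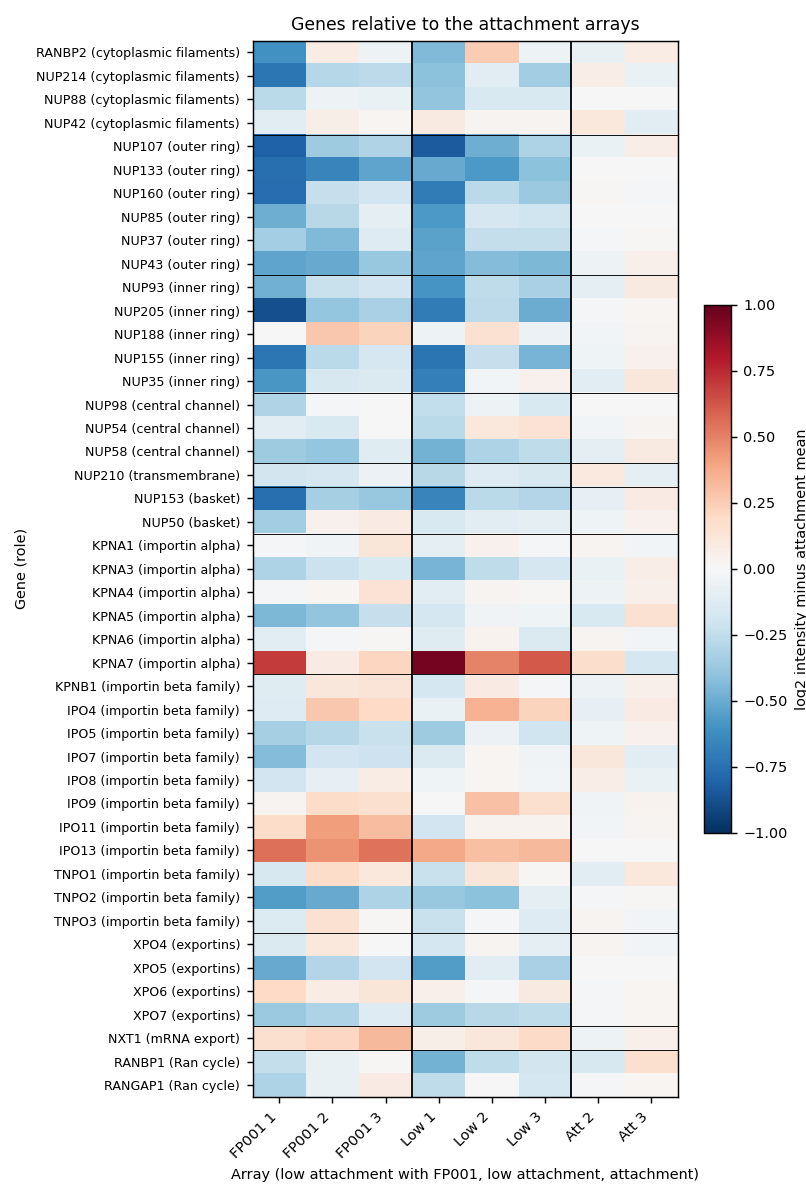
Each row is a gene (with its role) and each column an array, in the order low attachment with FP001, low attachment, attachment; colour gives the log2 intensity minus the mean of the 2 attachment arrays. The 6 outer ring genes are below the attachment mean on all 6 low-attachment arrays, and replicate 1 of either low-attachment group is the darkest blue for most nucleoporins.

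The direction of the differences was counted for each class, and the difference between the classes was not tested. The log2 fold change against attachment was below 0 for 20 of 21 nucleoporins with FP001 (median −0.30) and for 19 of 21 in normal medium (median −0.32). Among the 24 receptors and Ran regulators it was below 0 for 12 with FP001 (median −0.00) and for 18 in normal medium (median −0.05). Over all genes tested the medians were 0.02 and 0.01, and 47.5% and 48.5% of genes were below 0. Every array of the FP001 group read below both attachment arrays for 14 nucleoporins and 7 receptors, 46.7% of the 45 genes, where 26.2% of all genes did so. In normal medium this held for 16 nucleoporins and 6 receptors or Ran regulators (RANBP1 among them), 48.9% of the 45 genes, where 23.4% of all genes did so. Every array read above both attachment arrays for 4 of the 24 receptors and Ran regulators with FP001 (26.5% of all genes). In normal medium this held for 3 of the 24 (22.2% of all genes), and NXT1 was among them in either case. With these 8 arrays it held for no nucleoporin. Leaving out an array loosens this condition, so for these 45 genes the higher counts could stay or rise but not fall. Without FP001 replicate 1 the count with FP001 was 10 (31.5% of all genes), NUP188 and NUP50 among them, and without low-attachment replicate 1 the count in normal medium was 7 (28.1% of all genes), NUP54 among them. Without attachment replicate 2 or 3 the counts were 6 and 7 with FP001 (36.4% and 36.9% of all genes) and 5 and 6 in normal medium (33.9% and 33.3%). With quantile normalization 18 genes were below and 8 above both attachment arrays with FP001 (20.9% and 32.5% of all genes), and 19 below and 4 above in normal medium (18.8% and 26.5%). In that setting 3 of the 45 genes rose and 3 fell with FP001 (11.4% and 8.87% of all genes), 1 rose and 2 fell in normal medium (5.61% and 4.69%), and none did between FP001 and normal medium (0.0366% and 0.0458%). The sign counts against attachment also moved with the setting. With all 8 arrays 32 of the 45 genes were below 0 with FP001 and 37 in normal medium. With quantile normalization these were 28 and 30, and 19 of the 21 nucleoporins in either comparison. Without replicate 1 of both low-attachment groups, an alternative chosen after the data were seen, they were 27 and 29. In that alternative 17 and 16 of the 21 nucleoporins were below 0.

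The outer ring, or Y complex, is the scaffold layer on both faces of the pore, and it also sits at kinetochores in mitosis. All 6 of its members taken by the symbol rule read below both attachment arrays on every low-attachment array. Of all genes, 26.2% did so with FP001 and 23.4% in normal medium. Of the 6, 2 (33.3%), NUP133 and NUP43, fell in both comparisons, where 11.4% of all genes fell with FP001 and 5.76% in normal medium. The 6 genes were read against the same 2 attachment arrays. NUP133, at the stem of the Y, read 136.9, 146.4 and 160.6 with FP001, 162.9, 155.3 and 173.8 in normal medium on low-attachment plates, and 231.4 and 230.3 on attachment plates. Both low-attachment groups lay well below the attachment arrays, which differed little from each other. Its log2 fold change against attachment was −0.64 ± 0.10 (SE, adjusted p = 0.00186) with FP001 and −0.49 ± 0.10 (adjusted p = 0.0110) in normal medium. SEH1L and AHCTF1, outer ring genes outside the symbol rule, passed in neither comparison. SEH1L lay close to attachment (−0.13 ± 0.10 with FP001 and −0.11 ± 0.10 in normal medium), and AHCTF1 was lower (−0.38 ± 0.13 and −0.34 ± 0.13). NUP98, counted with the central channel, also encodes an outer ring protein. It overlapped attachment with FP001 (−0.11 ± 0.11) and lay below it in normal medium (−0.15 ± 0.11).

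NUP43, a small propeller protein on an arm of the Y, read 281.5, 287.0 and 312.3 with FP001, 281.7, 300.8 and 298.7 in normal medium, and 392.6 and 421.5 on attachment plates. The groups of low-attachment arrays overlapped each other and not the attachment arrays. Its log2 fold change against attachment was −0.47 ± 0.09 with FP001 (adjusted p = 0.00509) and −0.47 ± 0.09 in normal medium (adjusted p = 0.00815). In normal medium the call of NUP133 was lost when attachment replicate 2 was left out (adjusted p = 0.0804), and both calls were lost when replicate 3 was (0.0678 for NUP133 and 0.0721 for NUP43). Then 1 attachment array stood for its group and was assumed to vary like the others.

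The other 4 outer ring members taken by the symbol rule were also lower on every low-attachment array, with wider errors. NUP107, which joins the stem of the Y to NUP133, read 205.7, 281.5 and 292.6 with FP001, 203.3, 257.5 and 291.0 in normal medium, and 344.2 and 378.5 on attachment plates. Replicate 1 was the lowest array of each low-attachment group. The log2 fold change was −0.49 ± 0.17 with FP001 (adjusted p = 0.0693) and −0.54 ± 0.17 in normal medium (adjusted p = 0.0723). NUP160, the large scaffold protein of an arm, had −0.39 ± 0.17 and −0.44 ± 0.17, NUP85 had −0.28 ± 0.14 and −0.32 ± 0.14, and NUP37 had −0.30 ± 0.12 and −0.34 ± 0.12, with FP001 and in normal medium in that order. None of these 4 passed the threshold. With replicate 1 of both low-attachment groups left out, an alternative chosen after the data were seen, NUP107 was called in both comparisons (−0.33, adjusted p = 0.0370, and −0.40, adjusted p = 0.0239) and NUP160 in normal medium (−0.32, adjusted p = 0.0281).

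**Figure D2:**
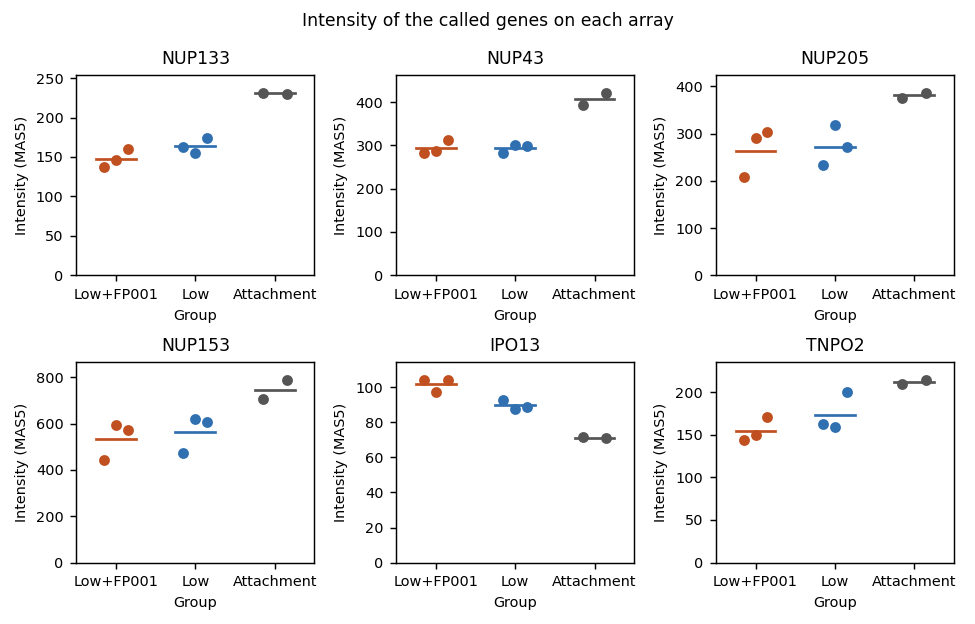
MAS5 intensity (linear axis from 0) of the 6 genes that passed the threshold in either comparison with attachment plates; points are arrays, in the order low attachment with FP001, low attachment and attachment, and bars are means of log2 values turned back to intensity. The panels of the 4 nucleoporins and TNPO2 have both attachment arrays on top, and IPO13 has them at 70.9 and 71.5, below every low-attachment array.

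The promoter windows of the genes called in both comparisons are shown where the RefSeq (GRCh38.p14) windows used held them. NUP133, which fell, and IPO13, which rose, had a window, and NUP43, also called in both, had none. Each window of 300 bases runs from upstream of the gene's start to just past it and is written 5′ to 3′ on the gene's own strand, with motif matches in capitals. The NUP133 window lies at chr1:229508292-229508591 on the minus strand and the IPO13 window at chr1:43946700-43946999 on the plus strand.
NUP133: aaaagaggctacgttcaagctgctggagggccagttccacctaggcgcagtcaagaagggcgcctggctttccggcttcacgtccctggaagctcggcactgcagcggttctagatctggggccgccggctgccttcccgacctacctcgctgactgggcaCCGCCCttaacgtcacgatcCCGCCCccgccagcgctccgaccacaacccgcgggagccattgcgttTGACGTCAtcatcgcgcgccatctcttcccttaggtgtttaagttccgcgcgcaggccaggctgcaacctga
IPO13: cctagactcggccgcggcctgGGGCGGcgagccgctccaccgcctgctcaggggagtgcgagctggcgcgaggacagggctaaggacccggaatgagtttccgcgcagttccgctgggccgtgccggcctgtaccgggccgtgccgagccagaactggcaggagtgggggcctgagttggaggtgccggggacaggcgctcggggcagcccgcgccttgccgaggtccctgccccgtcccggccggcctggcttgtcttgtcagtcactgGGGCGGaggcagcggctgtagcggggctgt

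The motifs searched, on both strands, were the GC box GGGCGG, the CCAAT box CCAAT, the cAMP response element TGACGTCA, the ETS core CCGGAAG, the NRF1 core GCATGCGC, the YY1 core AAGATGGC and the TATA box TATAAA. None of them overlapped another in these windows. Both windows hold GC boxes and neither holds a CCAAT or TATA match, and the NUP133 window also holds the cAMP response element. Of the 45 genes, 38 had a window. A GC box was in 55.3% of these and in 48.3% of the windows of all 27305 genes, a CCAAT box in 47.4% and 39.7%, and the cAMP response element in 7.89% (3 genes) and 2.25%. The ETS core was in 34.2% (13 genes) and 12.2%, namely NUP107, NUP160, NUP37, NUP35, NUP54, NUP58, NUP88, NUP214, NUP50, IPO4, TNPO3, XPO6 and NXT1. The YY1 core was in 13.2% (5 genes) and 3.52%, the NRF1 core in 7.89% (3 genes) and 3.68%, and the TATA box in 7.89% (3 genes) and 14.0%. A match is a description of the letters, not of binding.

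The inner ring anchors the pore to the membrane and to the central channel. Of its 5 members measured, NUP205 fell with FP001 and the other 4 passed in neither comparison. NUP205, a large solenoid-shaped scaffold protein, read 207.6, 291.1 and 303.9 with FP001, 234.3, 317.7 and 270.7 in normal medium, and 375.3 and 386.6 on attachment plates. All low-attachment arrays were below the attachment arrays, and replicate 1 was again the lowest of each group. The log2 fold change was −0.53 ± 0.17 with FP001 (adjusted p = 0.0482) and −0.49 ± 0.17 in normal medium (adjusted p = 0.0922).

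NUP188, the paralogue of NUP205 in the same ring, read 330.9, 398.2 and 387.0 with FP001, 319.1, 369.0 and 318.3 in normal medium, and 325.7 and 336.8 on attachment plates, so the groups overlapped (log2 fold change 0.16 ± 0.11 and 0.01 ± 0.11). NUP155 (476.8, 652.9 and 701.4 with FP001, 473.3, 669.8 and 570.9 in normal medium, and 765.0 and 808.0 on attachment plates) was below attachment on all arrays, with log2 fold changes of −0.38 ± 0.17 and −0.47 ± 0.17. NUP93, a linker of the ring to the channel, had −0.30 ± 0.12 and −0.39 ± 0.12, also without overlap with the attachment arrays. NUP35, a membrane-binding member, ranged from 38.9 to 64.3 on the low-attachment arrays and overlapped the attachment values in normal medium. The call of NUP205 was lost without attachment replicate 2 or 3 (adjusted p = 0.170 and 0.171), low-attachment replicate 3 (0.0666), or FP001 replicate 1 or 2 (0.100 and 0.0631), and without FP001 replicate 1 its log2 fold change was −0.36, against −0.53 with all 8 arrays.

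The basket and the cytoplasmic filaments lie on opposite faces of the pore. NUP153, a basket protein that meets import complexes, read 441.2, 594.0 and 572.1 with FP001, 473.1, 618.7 and 608.3 in normal medium, and 706.1 and 787.7 on attachment plates. No low-attachment array reached the attachment arrays, and replicate 1 was the lowest of each group. Its log2 fold change was −0.49 ± 0.15 with FP001 (adjusted p = 0.0423) and −0.41 ± 0.15 in normal medium (adjusted p = 0.111). NUP50, its partner in the basket, lay between 35.9 and 48.4 on the low-attachment arrays, against 44.4 and 47.0 on attachment plates, with log2 fold changes of −0.07 ± 0.14 and −0.12 ± 0.14. The call of NUP153 was lost without attachment replicate 2 or 3 (adjusted p = 0.117 and 0.199), low-attachment replicate 3 (0.0542), or FP001 replicate 1 or 3 (0.101 and 0.0539).

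Of the 4 cytoplasmic filament members none passed in either comparison. NUP214, which docks mRNA export factors, had 2 probe sets that gave the same direction. The brighter read 218.9, 295.6 and 300.2 with FP001, 271.2, 334.5 and 284.2 in normal medium, and 377.8 and 344.7 on attachment plates, with log2 fold changes of −0.42 ± 0.14 (adjusted p = 0.0621) and −0.29 ± 0.14 (adjusted p = 0.232). The other probe set read 62.4 to 69.7 with FP001, 64.9 to 78.8 in normal medium, and 83.7 and 90.0 on attachment plates. NUP88, the partner of NUP214, had −0.13 ± 0.10 and −0.23 ± 0.10, and NUP42, a cofactor of mRNA release, had −0.01 ± 0.10 and 0.05 ± 0.10. RANBP2, a SUMO ligase and the main Ran-binding filament protein, spread from 165.4 to 301.3 on the low-attachment arrays around the attachment values of 240.1 and 264.7. Near-identical RGPD copies of RANBP2 exist in the human genome, so which gene its probe set reads is uncertain.

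None of the 3 central channel members passed, nor did NUP210, the only transmembrane member among the 45 genes. Of transmembrane nucleoporins outside the symbol rule, POM121 fell with FP001 (−0.56 ± 0.15, adjusted p = 0.0277). NDC1 (−0.41 ± 0.15 with FP001 and −0.48 ± 0.15 in normal medium) and POM121C (−0.00 ± 0.12 and −0.22 ± 0.12) passed in neither comparison. NUP58, a channel protein, read 115.0, 112.7 and 135.1 with FP001, 105.9, 118.8 and 123.3 in normal medium, and 137.9 and 156.8 on attachment plates (log2 fold change −0.29 ± 0.12 and −0.35 ± 0.12). NUP98, whose transcript also encodes the outer ring protein released from its precursor, had −0.11 ± 0.11 and −0.15 ± 0.11. NUP54 had −0.09 ± 0.14 and −0.01 ± 0.14. NUP210, the transmembrane ring protein, read 366.4, 370.9 and 400.6 with FP001, 344.8, 381.2 and 373.2 in normal medium, and 445.7 and 390.2 on attachment plates, so that only the arrays in normal medium stayed clear of attachment.

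**Figure D3:**
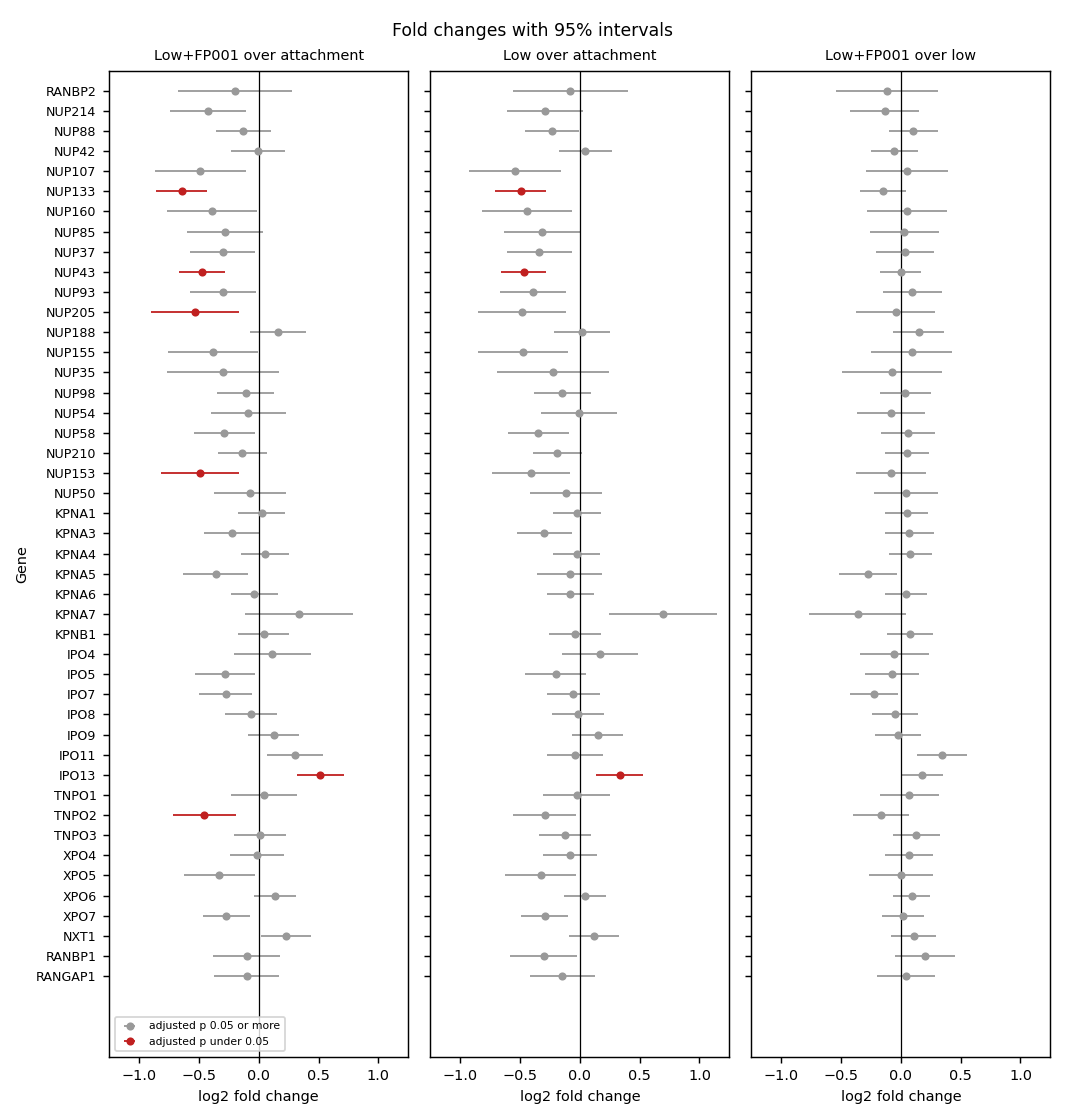
Log2 fold change of each of the 45 genes with its 95% interval, for low attachment with FP001 over attachment, low attachment over attachment, and FP001 over normal medium on low-attachment plates; red marks an adjusted p under 0.05. Red points are 6, 3 and 0, and in the right panel every interval lies between −0.76 and 0.55.

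The importin beta family holds the receptors that bind nucleoporins directly, and its members split. IPO13, which imports some cargoes and exports others, read 104.2, 97.3 and 104.0 with FP001, 92.7, 87.7 and 89.1 in normal medium, and 71.5 and 70.9 on attachment plates. The 3 groups did not overlap at all. IPO13 rose against attachment in both comparisons, with log2 fold changes of 0.51 ± 0.09 (1.43-fold, adjusted p = 0.00375) with FP001 and 0.33 ± 0.09 (1.26-fold, adjusted p = 0.0388) in normal medium. The call in normal medium was also lost with each array centred on its median (adjusted p = 0.0578), with no filter (0.0553) and with only the 2 groups compared (0.0627). It was lost when any array but low-attachment FP001 replicate 1 was left out (adjusted p from 0.0513 to 0.152), while its log2 fold change stayed between 0.31 and 0.35. The call with FP001 was kept in all 8 such fits (0.50 to 0.55).

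TNPO2, a transportin for RNA-binding proteins, read 143.9, 149.8 and 171.4 with FP001, 163.1, 159.6 and 199.8 in normal medium, and 210.2 and 214.3 on attachment plates. It fell by 0.46 ± 0.12 on the log2 scale with FP001 (adjusted p = 0.0240) and had a log2 fold change of −0.29 ± 0.12 in normal medium (adjusted p = 0.148). Its close relative TNPO1 had 0.04 ± 0.13 and −0.03 ± 0.13, and TNPO3, which imports SR splicing factors, had 0.01 ± 0.10 and −0.12 ± 0.10. The call of TNPO2 was lost without attachment replicate 2 or 3 (adjusted p = 0.111 and 0.104) or FP001 replicate 1 or 2 (0.0646 and 0.0675).

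KPNB1, the importin beta that works with the importin alphas, read 2420.6, 2853.4 and 2883.4 with FP001, 2336.1, 2789.1 and 2598.8 in normal medium, and 2548.3 and 2727.0 on attachment plates. The groups overlapped (log2 fold change 0.04 ± 0.10 and −0.04 ± 0.10). IPO7, an importin for ribosomal proteins and histones, read 1020.0, 1202.2 and 1194.0 with FP001, 1245.2, 1392.4 and 1346.1 in normal medium, and 1491.3 and 1270.1 on attachment plates, so the FP001 arrays stayed below both other groups (−0.28 ± 0.10, adjusted p = 0.0775, against attachment). IPO11 had 0.30 ± 0.11 with FP001 (adjusted p = 0.0680) and −0.04 ± 0.11 in normal medium. IPO4, IPO8 and IPO9 had log2 fold changes between −0.07 and 0.17 in both comparisons. IPO5 had −0.28 ± 0.11 and −0.20 ± 0.11 on its brighter probe set, and its other probe set, at 12.3 to 17.5, was under the array median on every array.

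The importin alphas are adaptors that read the classical nuclear localization signal and bind importin beta. None of the 6 passed. KPNA7, known as an importin alpha of oocytes and early embryos, was dim. It read 37.8, 24.7 and 27.0 with FP001, 45.3, 32.9 and 35.7 in normal medium, and 26.3 and 20.6 on attachment plates, so the arrays in normal medium were all above attachment while those with FP001 overlapped it. Its log2 fold change was 0.34 ± 0.20 with FP001 (adjusted p = 0.264) and 0.70 ± 0.20 in normal medium (adjusted p = 0.0559). KPNA3 was below both attachment arrays on all low-attachment arrays (434.4, 462.6 and 485.0 with FP001, 389.6, 450.8 and 478.6 in normal medium, and 512.7 and 564.9 on attachment plates), with −0.23 ± 0.10 and −0.30 ± 0.10. KPNA5 had −0.36 ± 0.12 with FP001 (adjusted p = 0.0648) and −0.09 ± 0.12 in normal medium, and KPNA1, KPNA4 and KPNA6 lay between −0.08 and 0.05.

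Among the exportins none of 4 passed. XPO7, a broad-specificity exportin, read 576.1, 601.6 and 682.2 with FP001, 584.5, 617.7 and 625.7 in normal medium, and 738.1 and 756.1 on attachment plates, and it missed the threshold narrowly (log2 fold change −0.27 ± 0.09, adjusted p = 0.0541, and −0.29 ± 0.09, adjusted p = 0.0602). XPO5, which exports microRNA precursors, read 168.4, 194.7 and 208.9 with FP001, 162.2, 222.0 and 190.9 in normal medium, and 239.9 and 237.4 on attachment plates (−0.33 ± 0.13 in both comparisons). XPO6, the exportin of actin with profilin, lay slightly above attachment with FP001 (0.13 ± 0.08) and overlapped it in normal medium (0.04 ± 0.08), and XPO4 had −0.01 ± 0.10 and −0.08 ± 0.10.

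The Ran cycle and mRNA export members were few and none passed. RANBP1, a cytoplasmic helper of Ran GTP hydrolysis, had 2 probe sets. The brighter read 269.0, 301.4 and 319.3 with FP001, 228.6, 266.3 and 278.6 in normal medium, and 283.4 and 354.8 on attachment plates, and the arrays in normal medium were the lower ones (log2 fold change −0.10 ± 0.13 with FP001 and −0.30 ± 0.13 in normal medium). The dimmer one overlapped attachment in both groups, at 71.9 to 81.7 with FP001, 62.6 to 79.0 in normal medium, and 76.3 and 83.7 on attachment plates. RANGAP1, the GTPase activator at the filaments, had −0.10 ± 0.12 and −0.15 ± 0.12. NXT1, the cofactor of the mRNA export receptor, read 145.6, 150.4 and 163.2 with FP001, 136.0, 141.1 and 148.9 in normal medium, and 125.8 and 135.4 on attachment plates, above attachment without overlap (0.23 ± 0.09 and 0.12 ± 0.09), and it was called with FP001 under quantile normalization (0.32, adjusted p = 0.0326), as was IPO11 (0.40, adjusted p = 0.0250).

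FP001 against normal medium on low-attachment plates gave no call among the 45 genes, where 0.0366% of all genes rose and 0.0733% fell. With the replicate number as a block, which pairs the arrays of these groups, there was still none, where 0.458% of all genes rose and 0.843% fell. At an unadjusted p under 0.05, 4 of the 45 genes and 11.6% of all genes passed, and the lowest adjusted p of the 45 was 0.219. In the fit without that block, the log2 differences ran from −0.36 to 0.34. The 95% intervals of all 45 then lay between −0.76 and 0.55, so larger effects than these lay outside every interval. The FP001 arrays stood clear of those in normal medium for 2 genes above (IPO11 and IPO13; 8.48% of all genes) and 2 below (KPNA5 and IPO7; 9.01% of all genes). Without FP001 replicate 1 these were 12 above and 3 below (13.8% and 14.3% of all genes). Without low-attachment replicate 2 or 3 there were 4 and 5 above (12.9% and 13.0% of all genes), and without low-attachment replicate 1 or FP001 replicate 3 there were 6 and 5 below (16.2% and 15.4%). IPO11, an importin for ubiquitin-conjugating enzymes, read 182.8, 214.6 and 199.5 with FP001 and 141.1, 165.0 and 165.1 in normal medium, the highest log2 difference of the 45 in this comparison (0.34 ± 0.09).

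Replicate 1 of each low-attachment group read low for most of these genes. It was the lowest of the 3 arrays for 38 of the 45 genes with FP001 and for 37 in normal medium, or 84.4% and 82.2%, where it was the lowest for 37.0% and 40.1% of all genes. For the 21 nucleoporins it was the lowest for 18 in either group. Its median deviation from the group mean over the 45 genes was −0.13 and −0.12 on the log2 scale, while over all genes it was 0.00 and −0.01. The same array was the lowest for 23 of 24 proliferation genes with FP001 and for all 24 in normal medium, and the part of this in the differences above was not tested. With replicate 1 of both groups left out, the genes called against attachment numbered 8 with FP001 (6 lower and 2 higher, where 11.0% and 7.23% of all genes were called) and 7 in normal medium (7 lower and 0 higher, where 6.13% and 4.64% of all genes were). Those 7 were NUP43, NUP133, NUP107, NUP160, NUP205, NUP155 and NUP153, all of them nucleoporins. Leaving out FP001 replicate 1 alone gave 3 calls with FP001 (where 1278 of all genes were called, against 2126 with all 8 arrays) and 10 in normal medium (1301 of all genes, against 1100). Leaving out attachment replicate 2 gave 3 calls with FP001 (660 of all genes) and 1 in normal medium (362). Leaving out attachment replicate 3 gave 3 with FP001 (1106 of all genes) and 0 in normal medium (449).

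**Figure D4:**
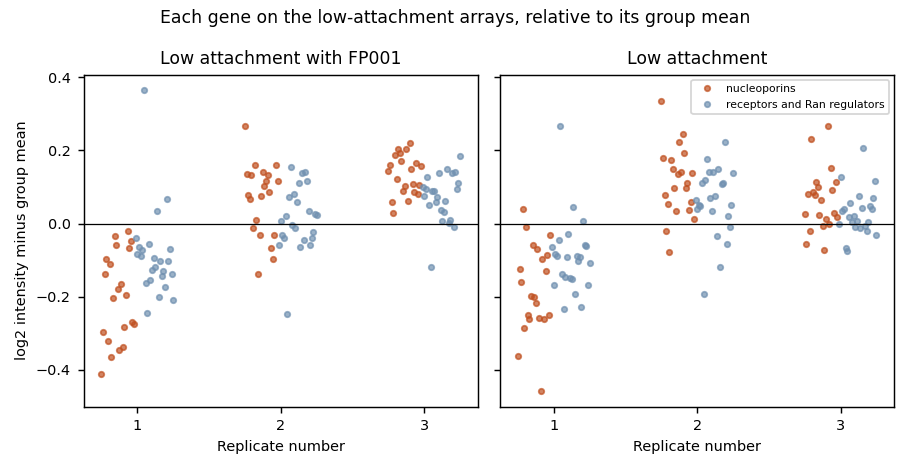
Log2 intensity of each of the 45 genes minus its group mean, by replicate number, for low attachment with FP001 (left) and low attachment (right); points are genes, spread sideways by gene, nucleoporins in orange and receptors and Ran regulators in blue. Most points of replicate 1 lie below 0 in both panels.

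Other genes of the pore and of transport that the symbol rule does not take were counted beside these. Of 40 listed symbols, among them NUPL1 and NUPL2 (older names of NUP58 and NUP42), 28 had a named probe set and 26 were tested. With FP001 1 rose and 3 fell against attachment (3.85% and 11.5% of the list, where 8.08% and 11.4% of all genes did), with a median log2 fold change of −0.04. In normal medium none rose and 1 fell (3.85% of the list, where 5.76% of all genes fell), with a median of −0.12. THOC1, a subunit of the THO complex that couples transcription to mRNA export, fell in both comparisons (−0.70 ± 0.15, adjusted p = 0.0105, and −0.61 ± 0.15, adjusted p = 0.0273). The pore membrane protein POM121 and the THO subunit THOC2 fell with FP001 (−0.56 ± 0.15, adjusted p = 0.0277, and −0.43 ± 0.12, adjusted p = 0.0313), and the RNA helicase DDX19A rose (0.33 ± 0.09, adjusted p = 0.0276).

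The nuclear lamina and envelope, to which the pores are anchored, had 14 of 17 listed genes tested. With FP001 3 of these rose and 2 fell (21.4% and 14.3%, where 8.08% and 11.4% of all genes did). In normal medium 2 rose and 2 fell (14.3% each, where 4.31% and 5.76% of all genes did). LMNA, which encodes lamins A and C, read 240.3, 254.2 and 231.1 with FP001, 197.2, 208.6 and 192.9 in normal medium, and 150.6 and 144.8 on attachment plates, and rose in both comparisons (log2 fold change 0.71 ± 0.09, adjusted p = 0.000712, and 0.43 ± 0.09, adjusted p = 0.0122). TMEM43 rose too (0.50 ± 0.08 and 0.40 ± 0.08), LMNB2 rose with FP001 (0.37 ± 0.10), and NEMP1 (−0.76 ± 0.14 and −0.88 ± 0.14) and BANF1 (−0.44 ± 0.10 and −0.35 ± 0.10) fell in both. Of 24 proliferation genes 2 rose and 0 fell with FP001 (8.33% and 0%, where 8.08% and 11.4% of all genes did). In normal medium 2 rose and 3 fell (8.33% and 12.5%, where 4.31% and 5.76% of all genes did). Their median log2 fold changes were −0.07 with FP001 and −0.28 in normal medium, and 14 and 22 of the 24 were below 0. Every array read below both attachment arrays for 6 with FP001 (25.0%, where 26.2% of all genes did). In normal medium this held for 13 (54.2%, where 23.4% of all genes did). Every array read above them for 3 and 2 (12.5% and 8.33%, where 26.5% and 22.2% of all genes did). CCNE2, a cyclin of the start of S phase, and RRM2, a subunit of ribonucleotide reductase, rose in both comparisons, and the mitotic kinases AURKA and TTK and the sliding clamp PCNA fell in normal medium.

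The labelled cell type was checked with 10 named markers of lung epithelium, of which 7 were at or above the median on all 8 arrays, with KRT18 between 3477.9 and 4578.7. NKX2-1 lay at 21.0 to 27.3, around the array median. Of other cell types, 2 of 3 named fibroblast markers, LUM and THY1, were at or above the median on all 8 arrays. The same held for 2 of 2 leukocyte markers and 0 of 3 endothelial markers. The remaining fibroblast marker, DCN, was at 3.3 to 3.9. The 3 endothelial markers summed to 55.8 to 71.5 with FP001, 51.2 to 55.9 in normal medium, and 46.1 to 52.3 on attachment plates. The 3 fibroblast markers summed to 133.9 to 493.0, 80.4 to 312.6, and 109.7 to 169.7 in the same groups. LUM read highest on replicate 1 of each low-attachment group, at 436.5, 79.0 and 103.4 with FP001, 246.6, 24.0 and 41.5 in normal medium, and 93.3 and 28.2 on attachment plates. The 2 leukocyte markers, CD14 and CD68, summed to 552.1 to 778.3, 495.5 to 655.8, and 406.2 to 484.4. The part of these markers in the results was not tested.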

How the data were processed

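Total RNA of 9 samples was hybridised as biotinylated cRNA, made from 100 ng by a 3′ in vitro transcription protocol, per the labels' protocols. The deposited values are linear intensities. Per the submitters' processing notes, MAS5 produced them. Its settings and the build are not given in the sources used. Probe sets were named from the platform annotation. Log2 intensities, with no pseudocount or further scaling, were fitted for 3 groups together (8 arrays) with limma 3.58.1 in R 4.3.3, with 1 probe set per gene (the brightest) and Benjamini-Hochberg adjustment over 10916 genes. Members and gene lists were chosen with earlier results of these data known. Named by rule are the genes called in any comparison, the member with the highest mean of each role, members below the filter and those with 2 probe sets. Other members named were chosen after their values were seen. Same-numbered arrays with FP001 and in normal medium deviated together (correlations 0.483, 0.309 and 0.231), but no label says what a shared number means. Same-numbered attachment arrays correlated between −0.256 and 0.138 with the low-attachment arrays. The main fit pairs no arrays, so its errors, intervals and p-values leave out any pairing. A replicate block was an alternative. The fit was tested on simulated data drawn independently for each array, so that test leaves out shared deviations of same-numbered arrays. The number of arrays limits the precision.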

Additional observations from a re-analysis of the deposited data

How the results depend on the processing

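The values below are log2 fold changes or counts of the 45 genes. With attachment replicate 1 added (all 9 arrays), no gene was called in any comparison (0 of the 45 and 0 of all genes), the medians against attachment became 1.38 with FP001 and 1.39 in normal medium, and the signs turned for NUP43 (1.82 and 1.82), NUP205 (1.12) and NUP153 (1.34). With the replicate number as a block, counts against attachment were 10 with FP001 (against 6; 8 lower and 2 higher, where 12.6% and 9.06% of all genes were) and 10 in normal medium (against 3; 9 lower and 1 higher, where 7.07% and 5.52% were), and 142 of all genes (against 12) were called between FP001 and normal medium. With a random replicate block that leaves attachment arrays unpaired, chosen after the data were seen, these were 8 (7 lower and 1 higher, where 11.7% and 8.15% of all genes were), 5 (3 lower and 2 higher, where 6.23% and 4.7% were) and 164. Without a trend in the variance prior, 0 of all genes were called between FP001 and normal medium, and with all named probe sets 22. Without replicate 1 of both low-attachment groups, the count in normal medium was 7, and without overlap between FP001 and normal medium 7 genes were below (against 2) and 12 above (against 2), where 22.3% and 20.4% of all genes were.

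Leaving out 1 array at a time gave 3 to 9 calls with FP001 and 0 to 10 in normal medium against attachment, and 0 between FP001 and normal medium. All genes called numbered 660 to 2305, 362 to 1301 and 0 to 11, the medians ran from −0.18 to −0.06, −0.21 to −0.09 and −0.04 to 0.09, and the genes below without overlap numbered 21 to 26, 22 to 27 and 2 to 6, and those above 4 to 10, 3 to 7 and 2 to 12. Of all genes, 26.3% to 35.9%, 23.4% to 34.6% and 9.03% to 16.2% were below without overlap in the same fits. Above without overlap were 26.5% to 36.9%, 22.2% to 33.9% and 8.49% to 15.3% of all genes. NUP205 and NUP153 missed the threshold with quantile normalization, no filter or no trend, and IPO13 in normal medium with median centring, no filter, only the 2 groups compared or the replicate block (adjusted p = 0.0597). Causes of these changes were not tested.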
